A study of Homo sapiens with 8 samples.

Results

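The 10 genes described here encode secreted liver proteins: ALB, AFP, TTR, TF, APOA1, APOA2, APOB, FGB, SERPINA1 and AHSG. They were chosen by gene symbol and not by a cut on their values, though earlier results of these data were known. Each symbol had 1 row, so 10 of the 25918 gene models in the deposited table are covered. In cells labelled HepG2, a human hepatocarcinoma line, 9 of the 10 genes lay under the 60th percentile of expression in all 4 treatments, compared with 43.2% of coding gene models, and no m6A peak was listed for any of the 10.

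Hepatocytes secrete most of the proteins of blood plasma. Albumin and transthyretin are carriers, apolipoproteins package lipids, fibrinogen forms clots and serpins inhibit proteases. Messages for these proteins are among the most abundant in liver, and HepG2 cells are widely used because they are known for secreting many of them, alpha-fetoprotein included. The modification mapped here, N6-methyladenosine (m6A), is placed on mRNA by a methyltransferase complex, often near stop codons and in long exons.

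The study applied 4 treatments to cells of 1 line. The first was UV irradiation at 0.04 J/cm2, after which the cells recovered for 4 h. Heat shock lasted 30 min at 43 degrees, and the labels leave unclear whether the recovery also applied to it. The growth factor HGF/SF was given overnight at 10 ng/ml and the cytokine IFNg (interferon gamma) overnight at 200 ng/ml. Each treatment had 1 immunoprecipitated and 1 input library of polyA-selected RNA cut to about 100 nt, so no value below has a replicate check and no test across replicates was possible. No untreated cells were analysed here, so each treatment is compared with the remaining 3.

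Expression is given as a percentile, the share of gene models at or below a gene's own value in that treatment. It is a rank and not an amount, and the sources do not say whether it accounts for transcript length. Depth is unknown. Models tied at the lowest value form a floor, which held 45.5% of all models after UV, 32.7% after heat shock, 20.4% with HGF and 18.4% with IFNg. The floor percentile equals the share of models tied at it, so a gene with the lowest possible value reads 45.5 after UV and 18.4 with IFNg. A percentile must therefore be read against the floor of its own treatment.

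The ranks of the 10 genes go against what is known of the labelled cell line, and the identity of the cells was not tested further. Of 8 hepatocyte markers, 7 were under the 60th percentile in all 4 treatments, as were 43.2% of coding models and 51.3% of all models. Among the 8 markers, 5 belong to the 10 genes, so this count repeats their values and is not separate support. All 3 markers outside the 10 genes were under the 60th percentile in all 4 treatments, and nothing is read from so few. The liver transcription factors HNF4A and FOXA2 were among these 3. HNF4A stood at the floor of 45.5 after UV, at 41.5 after heat shock, at 33.3 with HGF and at 56.9 with IFNg. Under the 60th percentile in all 4 were also 3 of 6 cholangiocyte markers, 4 of 6 blood cell markers, 2 of 6 fibroblast and stellate cell markers and 4 of 4 endothelial markers. The cholangiocyte and blood cell counts are near the shares over all models, and nothing is read from these lists of 4 to 6 genes. KRT7, a keratin of bile duct and other simple epithelia, stood between 99.2 and 99.8. The other cholangiocyte markers were lower. KRT19 stood between 58.8 and 79.2 and SOX9 between 43.7 and 61.0, and EPCAM, CFTR and SPP1 were each at the floor in 3 treatments. The 10 models of highest mean percentile carried the names NR_003287, NR_003286, NR_003285, X64709, CR615613, DQ597482, AK026901, CR592140, BC018860 and H19, the last an imprinted noncoding RNA at a mean of 99.96, and none of the 10 secreted protein genes was among them. In bulk samples, fewer cells of a type and less RNA per cell cannot be told apart.

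The promoters of some of these genes carry the CCAAT box, a general promoter element. In RefSeq promoters on GRCh38.p14, the 250 bases upstream of a start held the letters CCAAT, on either strand, in 32.0% of 35116 promoters. Of the 10 genes, 7 were in that table, with 10 promoters, while TTR, APOA1 and APOB were not. The letters were in 5 of the 10 promoters, belonging to 4 of the 7 genes (ALB, AFP, TF and FGB). Promoters of different FGB starts hold the same match, which is listed once below. It counts more than once among the 5, so nothing is read from 5 of 10 against 32.0%. The matches are shown to place the element in the genes whose ranks follow. Each has 12 bases on both sides, 5′ to 3′ on the gene's strand, with the box in capitals (ATTGG where it lies on the opposite strand).
ALB, chr4:73404189-73404217, plus strand: atcggttggcagCCAATgaaatacaaaga
ALB, chr4:73404231-73404259, plus strand: taatctacaattATTGGttaaagaagtat
AFP, chr4:73436084-73436112, plus strand: atgctgttaattATTGGcaaatgtcccat
TF, chr3:133746282-133746310, plus strand: gggagaggggcgATTGGgcaacccggctg
FGB, chr4:154562772-154562800, plus strand: ccatcattttgtCCAATtaaatgaattga
A match is a run of letters and not a shown binding site. A TATA box (TATAAA, either strand) was in 1 of the 10 promoters, that of AFP, against 10.7% of all promoters.

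Of the 40 values of the 10 genes, 20 were at the floor. After UV, 8 of the 10 genes were at the floor, against 36.4% of coding gene models. The numbers were 6 genes after heat shock, against 24.6% of coding models, 3 with HGF, against 12.7%, and 3 with IFNg, against 10.7%. The share of genes at the floor was thus above that of coding models in each of the 4 treatments. Coding models under the 60th percentile in all 4 treatments were at the floor in 78.3% after UV and 53.7% after heat shock. With HGF the share was 28.3%, and with IFNg 23.7%. The counts of the 10 genes are near these shares, so they are not a second result beside the low ranks. APOA2 and FGB were at the floor in all 4, as were 5.02% of coding models. TTR alone was above the floor in all 4.

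**Figure D1:**
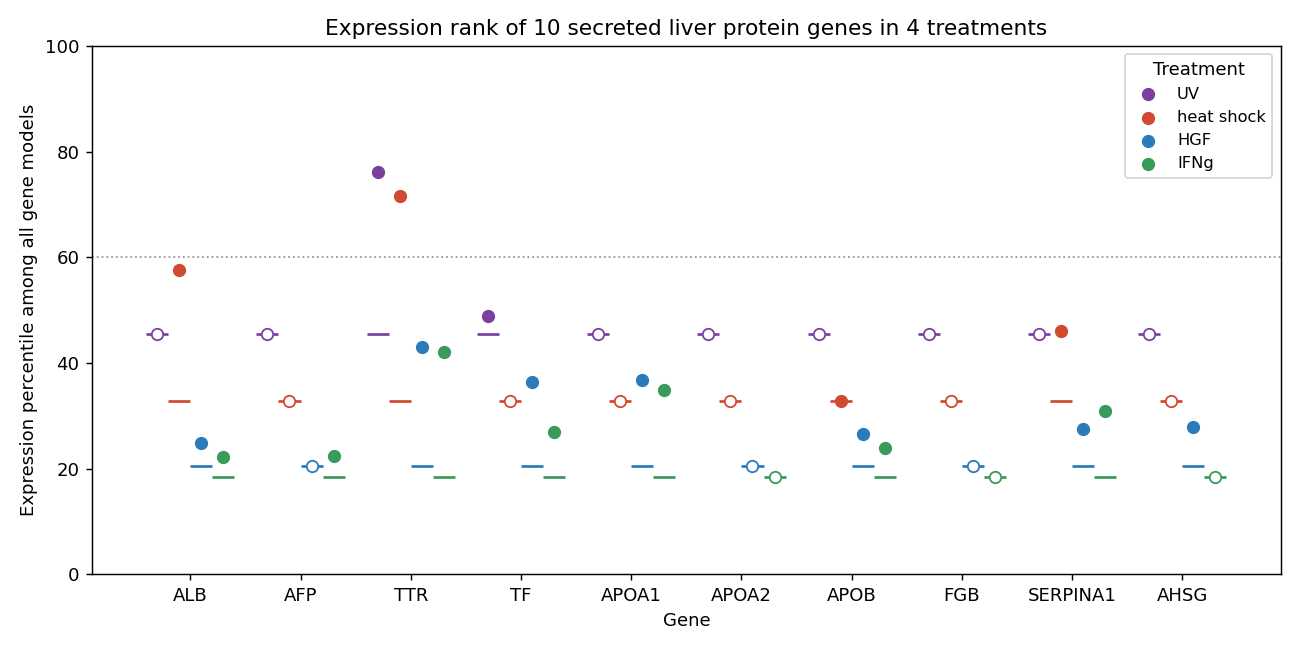
Expression percentile (vertical axis) of each of the 10 genes (horizontal axis) after UV, heat shock, HGF and IFNg. Short horizontal bars mark the floor of the treatment, open circles are genes tied at it, filled circles lie above it, and the dotted line marks percentile 60. Only TTR, after UV and heat shock, lies above the dotted line.

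**Figure D2:**
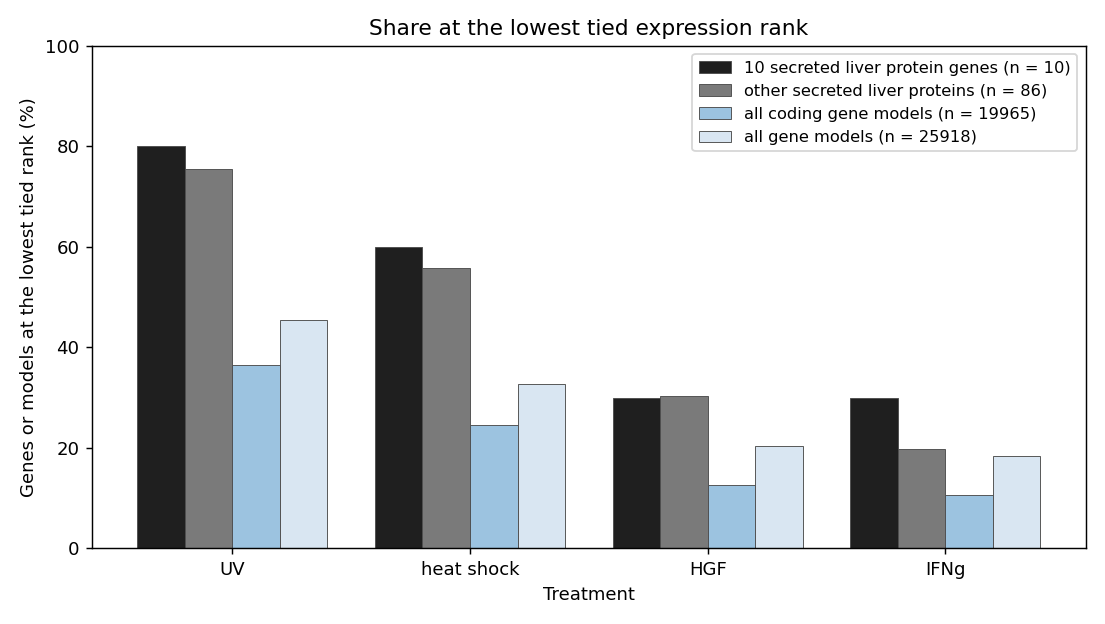
Percentage at the lowest tied rank in each treatment, for the 10 secreted liver protein genes, 86 other secreted liver protein genes, all coding gene models and all gene models. The bars of the 10 genes reach 80% after UV and 30% with IFNg, and stand above the coding models in each treatment.

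The carriers held both the highest value of the 10 genes, that of TTR after UV, and values at the floor. ALB (iduc003hgs.2, chromosome 4, 74488870 to 74505834, plus strand, coordinates as deposited, whose genome build the sources do not name) encodes albumin, the main protein of plasma. Its percentile was at the floor of 45.5 after UV, 57.6 after heat shock, 24.9 with HGF and 22.3 with IFNg. Of the models above the floor, 36.9% lay at or below ALB after heat shock, but 5.60% with HGF and 4.69% with IFNg. ALB was therefore in the lower part of the range above the floor in every treatment where it exceeded the floor. AFP (iduc003hgz.1, chromosome 4, 74520797 to 74540356, plus strand), the fetal relative of albumin and a serum marker of liver cancer, was at the floor after UV, heat shock and HGF. After IFNg it stood at 22.4, which is 3.94 points above that floor.

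TTR (iduc002kwx.2, chromosome 18, 27425838 to 27432794, plus strand) encodes transthyretin, which carries thyroid hormone and, with retinol-binding protein, vitamin A. It stood at 76.1 after UV and 71.5 after heat shock, against 43.0 with HGF and 42.0 with IFNg. The values of both stress treatments lay above those of both ligand treatments, with no overlap. TF (iduc003epv.1, chromosome 3, 134947490 to 134980325, plus strand), the iron carrier transferrin, stood at 48.8 after UV, at the floor of 32.7 after heat shock, at 36.4 with HGF and at 27.0 with IFNg. Its highest position above a floor was with HGF, where 20.0% of the models above the floor lay at or below it. AHSG (iduc003fqk.2, chromosome 3, 187813544 to 187821802, plus strand), the mineral-binding glycoprotein fetuin-A, stood at 27.9 with HGF and at the floor in the other 3 treatments.

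Of the 3 apolipoprotein genes, APOA2 was at the floor throughout, while APOA1 and APOB lay above it with HGF and IFNg. APOA1 (iduc001ppv.1, chromosome 11, 116211679 to 116213548, minus strand), the main protein of high-density lipoprotein, was at the floor after UV and heat shock and stood at 36.8 with HGF and 34.9 with IFNg. Of the models above the floor, 20.5% with HGF and 20.1% with IFNg lay at or below it. APOA2 (iduc001fzc.1, chromosome 1, 159458707 to 159460042, minus strand) encodes the other major protein of that particle. APOB (iduc002red.1, chromosome 2, 21077806 to 21120450, minus strand), the scaffold of very-low-density lipoprotein, was at the floor after UV and only 0.00772 points above it after heat shock. It stood at 26.6 with HGF and 24.0 with IFNg. With HGF this was 6.14 points above the floor and with IFNg 5.52 points, against 16.3 and 16.4 points for APOA1.

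FGB and SERPINA1 represent clotting and protease inhibition. FGB (iduc003ioa.2, chromosome 4, 155703582 to 155711688, plus strand), the beta chain of fibrinogen, was at the floor in all 4 treatments. Its partner chains were low as well. FGA, the alpha chain, was at the floor after UV, heat shock and HGF and stood at 28.8 with IFNg. FGG, the gamma chain, was at the floor after UV and IFNg and stood at 40.6 after heat shock and 26.6 with HGF. SERPINA1 (iduc010aux.1, chromosome 14, 93912837 to 93926782, minus strand), the elastase inhibitor alpha-1-antitrypsin, was at the floor after UV. It stood at 45.9 after heat shock, 27.5 with HGF and 30.8 with IFNg, and in these treatments between 8.87% and 19.6% of the models above the floor lay at or below it.

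Differences between treatments were sought by 2 rules, both without replicates. Values under the highest floor, 45.5, were first raised to it, and only models at the 60th percentile or more in any treatment were counted. Of the 12624 models that passed, 1 was among the 10 genes, TTR. The first rule called a model that lay 10 points or more beyond the nearest of the other 3 treatments. It called 4.1% of models after UV, 6.85% after heat shock, 2.96% with HGF and 6.41% with IFNg, and TTR in none. The second called a rank from the top that differed 2-fold or more, which held for 0.768%, 1.78%, 0.903% and 3.02% of models after UV, heat shock, HGF and IFNg, and again not for TTR.

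TTR was not called because UV and heat shock lay close to each other. UV exceeded heat shock by 4.61 points, or 0.25 on the log2 scale of rank from the top. IFNg minus HGF was -0.94 points as deposited, both values being under the highest floor. Among the 12624 models past the filter, 2-fold rank differences occurred in 3.87% for UV against heat shock and in 6.41% for IFNg against HGF. Of the 10 genes, 0 reached one in either pair. The 9 genes under the 60th percentile in all 4 treatments lay too low to reach it in either pair, and TTR too low with HGF and IFNg. Nothing is read from that 0. A comparison of the pairs was added after the values of TTR were seen. After raising, UV and heat shock both exceeded HGF and IFNg by at least 26.0 points in TTR. A gap of 10 points or more in that direction was found in 5.75% of models past the filter. TTR passed the filter only through UV and heat shock, and the comparison was chosen on its values, so nothing is read from that share.

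TTR was also set against models of like transcript GC content. Its longest coding transcript has a GC content of 46.9%. The mean of UV and heat shock minus the mean of HGF and IFNg was taken after raising. Among the 280 models past the filter between 46.6% and 47.2% GC, its median was 2.16 points, against 28.3 points for TTR. TTR was chosen on this gap, so nothing is read from that comparison. With the GC correction the gap of TTR was 25.3 points. The HGF and IFNg values of TTR had been raised to 45.5 beforehand, so this is not a measured gap. The cause of the gap was not tested. The labels give no batch, so batch and treatment cannot be told apart.

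ALB was outside the filter, but its value after heat shock was 12.1 points above the nearest other treatment, which was UV at its floor. Without the filter, 1.95% of all models lay 10 points or more above the nearest other treatment after heat shock, and ALB was the only one of the 10 genes past the 10-point rule in any treatment. ALB was singled out after its values were seen. A rank below 45.5 cannot be read after UV, and where in that range ALB lay was not measured. With the GC correction the gap of ALB was 3.42 points, under the threshold. Its values after UV, with HGF and with IFNg had all been set to 45.5 beforehand. The corrected gap is therefore not a measured one, and nothing is read from it.

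No m6A peak was listed for the 10 genes in any treatment. Peaks were rare in models of such rank. Among the 8631 coding models under the 60th percentile in all 4 treatments, a peak was listed for 2.98% after UV, 1.32% after heat shock, 1.82% with HGF and 0.429% with IFNg. For all coding models the shares were 34.6%, 27.6%, 26.6% and 17.4%, in the same order of treatments. With 9 of the 10 genes in the low class, 0 genes with a peak is near that background, and the absence of a listed peak does not show that these transcripts were unmethylated. TTR, which reached the 76.1st percentile, had no listed peak either.

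Other secreted liver proteins were also low. Of a list of 86 genes, all found in the table, 68 were under the 60th percentile in all 4 treatments (79.1%), compared with 43.2% of coding models. At the floor were 75.6% of the list after UV, 55.8% after heat shock, 30.2% with HGF and 19.8% with IFNg. By class, those under the 60th percentile were 12 of 17 lipoprotein genes, 14 of 18 coagulation genes, 16 of 19 protease inhibitors, 19 of 20 carriers and acute phase proteins, and 7 of 12 growth factor and hormone genes. Chromosomal relatives of the 10 genes were among the low ones. AFM and GC (the vitamin D-binding protein), relatives of ALB on the same chromosome, were at the floor in 3 of 4 treatments, as was APOC3 of the APOA1 cluster. APOA4 was at the floor in 2 treatments and APOA5 in 1.

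**Figure D3:**
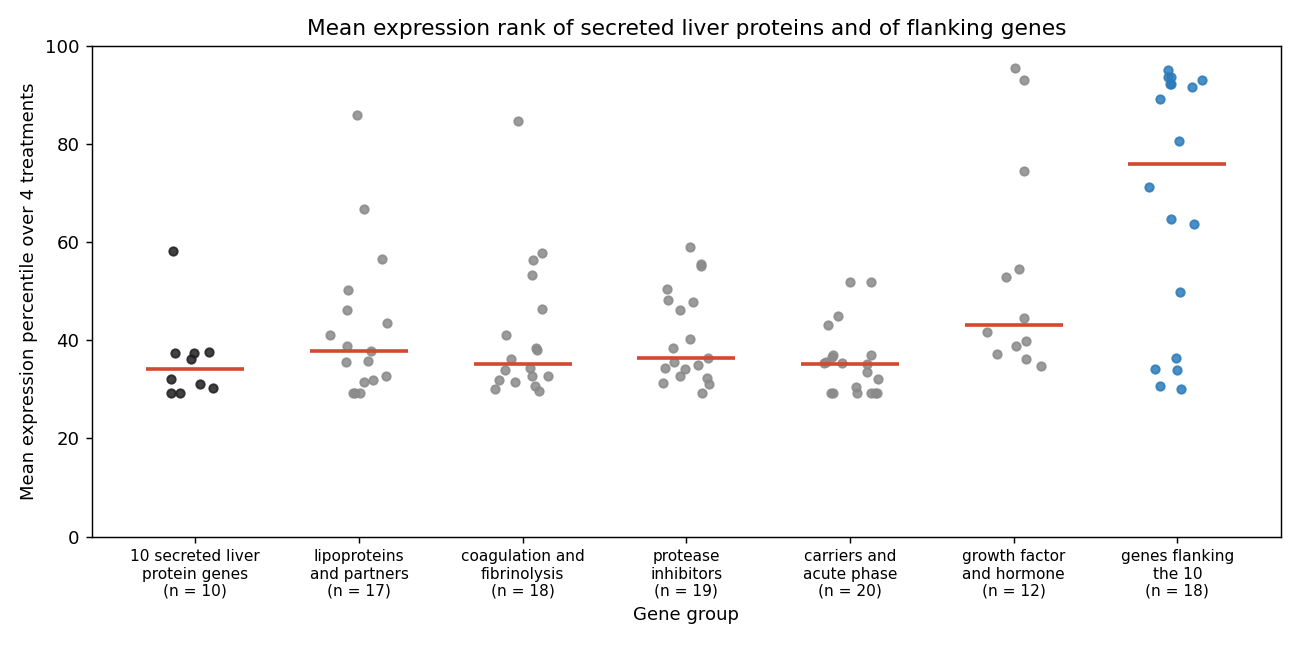
Mean expression percentile over the 4 treatments (vertical axis) for each gene of 7 groups (horizontal axis), with the median as a red bar. The 10 genes have a median of 34.2, and the 5 classes of other secreted liver proteins have medians between 35.2 and 43.2. The 18 genes flanking the 10, chosen with all listed secreted proteins left out, have a median of 76.0.

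The exceptions in that list were few. In all 4 treatments, 5 of the 86 genes were at or above the 60th percentile, among them TFPI, IGFBP3, IGFBP4 and RARRES2. IGFBP3, a carrier of insulin-like growth factors, stood at 96.9 after UV, 96.7 after heat shock, 92.5 with HGF and 95.7 with IFNg. TFPI, an inhibitor of the tissue factor pathway of clotting, stood between 83.2 and 87.0. m6A peaks were listed for 4 of the 86 genes. IGFBP3 had 5 peaks after UV, 3 after heat shock, 1 with HGF and 2 with IFNg, and 1 in the 3′ untranslated region appeared in all 4, at transcript positions 1324, 1321, 1312 and 1315. TFPI had 1 peak with HGF and IGF2 had 1 with IFNg. Ranks of 60 or more in all 4 treatments were thus recorded for 5 of the 86 genes, and m6A peaks for 4 of 86 (4.65%). None of the 10 genes had either, and TTR passed 60 in 2 treatments. With shares this low in the list, none of 10 is near the list's own share. No difference between the 10 genes and the list is read from it.

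Past the filter were 18 of the 86 genes. By the 10-point rule, 1 of them was called after UV, 1 after heat shock, 2 with HGF and 2 with IFNg, where the shares of all models past the filter were 4.1%, 6.85%, 2.96% and 6.41%. Each of the 6 passed the filter only in the treatment that called it, which fixed its direction as higher, so the counts are a description. SERPING1, the C1 inhibitor of the complement system, stood at 94.3 with IFNg, against 45.5 (floor) after UV, 32.7 (floor) after heat shock and 48.0 with HGF. It was the only one of the 86 past the 2-fold rank rule. FGF21, a metabolic hormone, stood at 68.4 with IFNg and at the floor in the other 3. APOF, a regulator of cholesteryl ester transfer, stood at 67.0 after UV, against the floor after heat shock, 27.0 with HGF and 24.5 with IFNg. PROS1, the anticoagulant protein S, stood at 68.4 after heat shock, and LEAP2 and SERPINF2 stood at 60.6 and 62.6 with HGF.

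The genes that flank the 10 on the chromosome had a median mean percentile of 76.0, against 58.0 for coding models. The 10 genes themselves and the 86 listed secreted proteins were left out as flanking genes. The nearest such coding model on each side gave 18 different genes, between 2414 and 2518076 bases from the gene they flank. Of these, 11 (61.1%) were at or above the 60th percentile in all 4 treatments, compared with 39.4% of coding models. Genes of the 10 or of the list that lay nearer were passed over. Of the list, 79.1% were under the 60th percentile in all 4 treatments. Leaving them out removes low neighbours and raises the flanking ranks, so the comparison with coding models is a description. A listed m6A peak in any treatment was found for 9 of the 18 (50%), compared with 38.2% of coding models. With 18 genes, neither share is read as a difference from coding models. ANKRD17, beside ALB and AFP, stood at 94.6 after UV, 95.5 after heat shock, 91.6 with HGF and 90.9 with IFNg, with between 3 and 5 peaks. DNAJB11, beside AHSG, stood between 94.0 and 96.9. PLRG1, 12608 bases from FGB, stood between 86.7 and 95.6. RASSF6, on the other side of ALB and AFP, stood at 50.5 after UV, 33.7 after heat shock, 33.2 with HGF and 18.7 with IFNg, and PPP4R4 and SERPINA11, on the sides of SERPINA1, were under the 60th percentile in all 4.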

How the data were processed

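The deposited table gave, for each of 25918 gene models and each of 4 treatments, an expression quantile as a fraction from 0 to 1 and the m6A peaks with a score, transcript position and segment (per the file headers). The authors' aligner, peak caller, score formula and genome build, and whether the quantile comes from the immunoprecipitated or the input library, are not given in the sources used here. Quantiles were multiplied to percentiles. A gene was represented by its row of highest mean percentile. The 86 other secreted proteins and the cell type markers were listed, and the members chosen, with earlier results of these data known. Named genes were the 10 members, FGA and FGG, the 10 top models, and list genes past a call rule (up to 5 per treatment and direction). Further names, such as IGFBP3, KRT7, the chromosomal relatives and the flanking genes, were picked with their values known. GC content came from the longest coding GENCODE 29 transcript of a symbol, found for 89.0% of models past the filter. The GC correction subtracted the median of models in the same of 40 GC bins in each treatment. Promoter sequences are from RefSeq (GRCh38.p14), and deposited coordinates were not compared with that build. No member lay near the top, so models of high rank were not used as background. The call rules were run on simulated ranks with little noise and known shifts above the threshold. That run checks the code only and gives no error rate for these single libraries. Python 3.11.15, pandas 2.3.3, NumPy 2.4.6 and matplotlib 3.10.9 were used. Protein sequences were not used here. Alternatives covered thresholds, floors, the filter, the reference, GC and re-ranking. Certain genes of the lists are counted but not reported here by name.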

Additional observations from a re-analysis of the deposited data

How the results depend on the processing

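Counts of the 10 genes at the floor kept within 1.5 times under re-ranking with 1 model per symbol, which moved no percentile of the 10 by more than 2.18 points, and 0 genes with a peak held for every row of the symbols and for scores of 3 or more. Within 5 points of the floor were 5 genes with IFNg. Re-ranked among coding models, the median of the 10 genes was 35.9 after UV, 23.98 after heat shock, 18.9 with HGF and 14.9 with IFNg. Against the median of the other 3 treatments, 1 of the 10 (TTR) was called by the 10-point rule in each treatment and 1 by the 2-fold rule after UV, and without the filter 1 (ALB) was called after heat shock. The gap of ALB was 31.3 points as a position among models above the floor and 3.42 with GC correction.

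All models past the 10-point rule numbered 1296 (UV), 2592 (heat shock), 1304 (HGF) and 2419 (IFNg) at 5 points. Against the median of the others they numbered 3036, 4037, 3022 and 3876, and with a filter at percentile 90 they numbered 44, 112, 29 and 144. GC correction gave 536 after heat shock, and floors as deposited gave 596 with HGF. Of the 86 other secreted proteins, 2, 4 and 7 were called after heat shock, HGF and IFNg at 5 points. Without the filter 2 were called after UV and 2 after heat shock, and at 1.5-fold 1 was called after UV, 1 with HGF and 3 with IFNg. The causes were not tested. Each symbol of the 10 had 1 row, so a median over rows was the same value, and with no peak the joining distance had nothing to join. The 2-fold rule among models at percentile 95 or more was not run, as no member lay there, nor was a median over rows for the other list. No paired analysis was possible because each group had 1 library. Depth is unknown, and a high floor hides low ranks most after UV.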
